A study of Arabidopsis thaliana with 12 samples.

Results

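The differences between SPH1 RNAi and Col-0 rosette leaves of Arabidopsis thaliana that were present at both of the growth stages sampled, 1.05 and 1.14, are described here. A probe set counted as shared where every array of one genotype lay above every array of the other, in the same direction, at stage 1.05 and again at stage 1.14. Of 13263 probe sets tested, 742 met this (5.59% of those tested), 441 of them higher in SPH1 RNAi (3.33%) and 301 lower (2.27%). Each of the 4 groups, Col-0 and SPH1 RNAi at each stage, had 3 ATH1 arrays, so 6 arrays of each genotype entered the comparison, and every array stood for 40 pooled plants. Both genotypes had the Col-0 ecotype as their background, and the SPH1 RNAi plants carried in addition an RNAi construct against SPH1 and were labelled as a single line. No other treatment separates the groups in the labels, and all plants were grown in a greenhouse on compost treated with Intersept. Neither the promoter of the construct nor the number of independent transformants is stated in the labels. The Col-0 labels name no construct, so an effect of losing SPH1 and an effect of the construct or its place of insertion cannot be told apart.

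SPH1 (AT4G16295) belongs to the S-protein homologues, a plant family of small secreted proteins. They are named for their likeness to the self-incompatibility S protein of the poppy Papaver rhoeas, and most of the Arabidopsis members have no settled function. In RNA interference a transcript that folds into a double strand is cut into small RNAs, which direct the breakdown of matching messenger RNA. The growth stages count rosette leaves, so that stage 1.14 is an older rosette with more leaves than stage 1.05. SPH1 had no listed probe set and its level was not analysed here, so the knockdown itself was not checked. Of the 10 homologues considered, 9 had a listed probe set, and all 9 had mean signals between 1.13 and 10.96, under the minimum mean signal of 32 set for the test.

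The arrays had been brought to a common level, with a trimmed mean of 100.01 on each, and their median signals lay between 37.7 and 48.35. Replicate 1 of SPH1 RNAi at stage 1.14 stood apart from the other arrays of its group, with correlations of 0.894 and 0.904 against 0.969 between the remaining pair. Replicates 2 and 3 of that group are marked in their titles as repeats, and replicate 3 lacks the note of the RNAi construct and was grouped by its source name. A fit without both repeated arrays leaves replicate 1 as the only array of that group, so for single genes only the size of a difference is given from it. Counts of probe sets from that fit rest on this array, which stood apart, and are given only where the dependence on the processing is described. The average background of the scans was 68.54 to 79.46 on the SPH1 RNAi arrays of stage 1.05 and 86.4 to 118.93 on the Col-0 arrays, without overlap (exact two-sided permutation test, p = 0.1, the smallest that 3 arrays against 3 can give). At stage 1.14 the ranges overlapped, 75.5 to 136.5 against 71.31 to 100.89 (exact permutation p = 0.8). With the background as a covariate, 295 of the 433 probe sets described next still passed.

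The question of which differences held over both stages was put to a linear model in limma with genotype and stage as terms, fitted to log2 of signal plus 16, and the threshold was 0.05 on the p-value after Benjamini-Hochberg adjustment. In all, 627 probe sets passed (4.73% of those tested), 429 higher in SPH1 RNAi (3.23%) and 198 lower (1.49%). After quantile normalization the split was 376 higher and 293 lower. Both criteria, passing and not overlapping at both stages, were met by 433 probe sets (3.26%), 283 higher (2.13%) and 150 lower (1.13%). Another 158 of the higher and 151 of the lower non-overlapping probe sets did not pass. Conversely, 194 probe sets passed although the genotypes overlapped at a stage, and 323 probe sets (2.44%) were separated at both stages in opposite directions. Taken alone, stage 1.05 separated the genotypes for 27.6% of the tested probe sets (15.9% higher, 11.7% lower in SPH1 RNAi) and stage 1.14 for 28.2% (17.9% higher, 10.3% lower). Among probe sets under the minimum signal, 142 of 9483 (1.5%) were separated in the same direction at both stages, 123 of them higher, and these were not tested.

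The 283 higher probe sets that passed had a median log2 difference of 0.75, with medians of 0.84 at stage 1.05 and 0.61 at stage 1.14. The difference was larger at stage 1.05 for 187 of them. The 150 lower ones had a median of -0.62, with -0.56 at stage 1.05 and -0.70 at stage 1.14, and 99 of them had the larger difference at stage 1.14. Here and below, counts by the stage with the larger difference are over members chosen by the genotype difference. The share over all tested probe sets was not counted. Over all tested probe sets the median was 0.05. In Col-0 the lower probe sets were the brighter ones: the median of their mean signals was 212.2 at stage 1.05 and 201.2 at stage 1.14, against 47.8 and 77.6 for the higher probe sets. In SPH1 RNAi the medians lay closer, 129.95 and 119.0 for the lower and 113.8 and 137.0 for the higher ones, so that the higher ones were brighter at stage 1.14. In 28 of the higher probe sets Col-0 had a mean signal under 32 at both stages. Of these, 27 were at or above 32 at both stages in SPH1 RNAi. The filter asked for a mean of at least 32 over all arrays. Such probe sets could thus enter only with a mean above 32 in SPH1 RNAi over both stages, so these counts follow largely from the filter. The brightness of both sets in Col-0 also depends on the filter and on choosing by the genotype difference. It was not tested apart from these. A difference of at least 2-fold at both stages was reached by 36 members (0.271% of the probe sets tested), of which 30 higher and 5 lower ones passed. At least 1.5-fold was reached by 110 higher and 47 lower ones that passed. Since the leaves were measured in bulk, fewer cells of a type and less RNA per cell cannot be told apart.

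**Figure D1:**
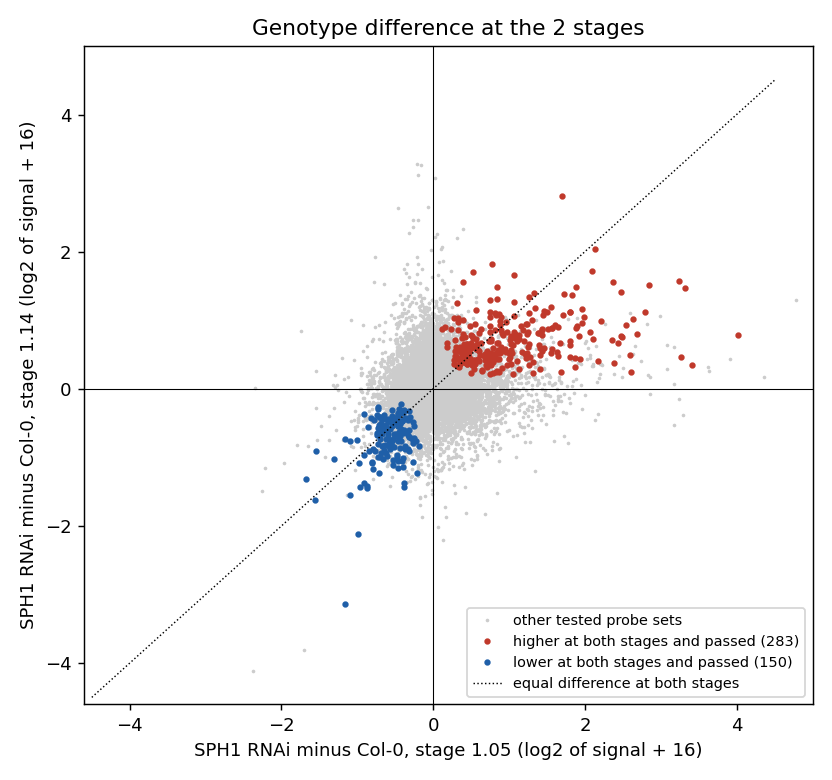
Difference between SPH1 RNAi and Col-0 at stage 1.05 (horizontal axis) and at stage 1.14 (vertical axis), each as a mean difference in log2 of signal plus 16, with 1 point per tested probe set. The 283 higher probe sets (red) reach farther along the stage 1.05 axis, and the 150 lower ones (blue) farther along the stage 1.14 axis; the dotted line marks equal differences.

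A probe set with exactly 1 listed gene was found for 156 of the 283 higher and 68 of the 150 lower probe sets, and the gene names below come from these. The strongest shared increase by the smaller of the differences at the stages was that of AT1G43910, an AAA-type ATPase. Its signal was 63.7, 61.7 and 56.4 on the Col-0 arrays and 419.8, 269.6 and 262.7 on the SPH1 RNAi arrays at stage 1.05, and 72.2, 105.6 and 83.9 against 321.5, 300.7 and 337.3 at stage 1.14. No Col-0 array of either stage came within reach of any SPH1 RNAi array. The genotype difference was 1.90 ± 0.14 on the log2 scale (SE, n = 6 arrays per genotype; limma adjusted p = 3.08e-05), a 3.74-fold difference in signal plus 16. Of the 15 higher genes chosen by this order, 10 had every SPH1 RNAi array of stage 1.05 above every Col-0 array of stage 1.14 as well, and in all 15 the Col-0 mean was higher at stage 1.14 than at stage 1.05. For AT3G57950 both Col-0 means were near 0, where the order is not reliable. The shares of all tested probe sets with these orders were not counted. Over all of them the median of the Col-0 means was 92.7 at stage 1.05 and 101.2 at stage 1.14.

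AAA-type ATPases of the BCS1-like clade are membrane or organelle proteins that use ATP to remodel other proteins, and several are known as stress-responsive genes in leaves. Of 22 loci in this list, 14 had a listed probe set and 5 were tested. Of these 5, 4 rose and 1 did not pass, with a median log2 difference of 1.60, and 3 were separated at both stages. Over all tested probe sets 4.73% passed. The listed loci that were not tested lay under the minimum mean signal, and not all of them read higher in SPH1 RNAi. AT3G28510 reached that minimum largely through SPH1 RNAi, with Col-0 means of 5.2 and 43.0 against 80.4 and 99.3. The count and the median thus depend in part on the filter and only describe the list. AT5G17760 had signals of 30.8, 31.4 and 39.7 in Col-0 and 142.0, 140.9 and 198.1 in SPH1 RNAi at stage 1.05, and 99.1, 127.7 and 139.8 against 299.3, 296.1 and 254.3 at stage 1.14. Its difference was 1.47 ± 0.15 (SE; limma adjusted p = 0.000418). AT3G28510 had signals of 12.4, 1.5 and 1.7 against 90.3, 60.5 and 90.5 at stage 1.05. At stage 1.14 it stood at 23.8, 66.9 and 38.2 in Col-0 and 139.8, 70.2 and 87.9 in SPH1 RNAi, where the nearest arrays were close to each other. Its difference was 1.60 ± 0.26 (adjusted p = 0.0062). AT3G28540 also passed, with 1.65 ± 0.35 (adjusted p = 0.0214), but the genotypes overlapped at stage 1.14, and its call was lost without any one of 3 arrays, replicates 2 and 3 of SPH1 RNAi and replicate 2 of Col-0 at stage 1.05 (adjusted p = 0.0587, 0.0528 and 0.0508). The remaining gene of the list, AT2G46620, had a difference of 0.24 and opposite signs at the stages.

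AT3G57950 was close to absent from Col-0. Its Col-0 signals were 2.0, 1.3 and 1.4 at stage 1.05 and 1.3, 2.2 and 1.8 at stage 1.14, against 66.5, 22.8 and 41.8 and then 88.4, 140.8 and 102.7 in SPH1 RNAi. The difference was 2.26 ± 0.22 (adjusted p = 0.000418). Its size depends on the offset added before the logarithm, being 4.66 with an offset of 1 and 1.05 with an offset of 64, while the order of the arrays does not. AT3G60470 had low Col-0 signals too, 6.1, 8.2 and 19.2 at stage 1.05 and 15.8, 17.3 and 19.5 at stage 1.14. In SPH1 RNAi it stood at 48.8, 51.6 and 52.0 and at 64.1, 70.6 and 83.2, with little spread inside each SPH1 RNAi group. The difference was 1.36 ± 0.12 (adjusted p = 0.000204). AT3G48640 belonged to the same low range, with Col-0 signals from 9.0 to 17.6 and SPH1 RNAi signals from 33.2 to 78.5 over both stages (1.17 ± 0.14, adjusted p = 0.000964). Offsets of 1 and 64 gave 2.11 and 0.68 for AT3G60470, 1.84 and 0.57 for AT3G48640, and 2.70 and 0.83 for AT3G28510. An offset of 64 also made the size smaller by over 1.5 times for AT1G13340 (1.03), AMY1 (0.83), ATPMEPCRB (0.85), OSM34 (0.89), RR16 (-0.52) and AT1G62660 (-0.61), and, among the list genes below, for WRKY53 (0.51), GRX480 (0.37), AT2G43620 (0.45), AT4G01700 (0.39) and AT4G14090 (-1.15). Among the genes given below for their symbol it did so for WRKY47 (0.55), EMS1 (0.24), SFP2 (-0.27), ALN (-0.29) and FHL (-0.22). EMS1 and FHL had low mean signals over all arrays, 43.4 and 34.6.

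MSRB9, a methionine sulfoxide reductase that returns oxidised methionine in proteins to methionine, rose at both stages. It stood at 65.8, 33.4 and 38.8 in Col-0 and 245.2, 177.1 and 178.6 in SPH1 RNAi at stage 1.05, and at 91.5, 117.5 and 68.1 against 261.5, 242.1 and 273.7 at stage 1.14. The gap between the genotypes was wider than the spread inside any group, and the difference was 1.60 ± 0.16 (adjusted p = 0.000418). AT1G13340, of the IST1-like family linked to membrane protein sorting, went from 31.4, 22.8 and 17.5 to 183.0, 99.9 and 81.5 at stage 1.05. At stage 1.14 it stood at 67.5, 81.4 and 63.4 in Col-0 and 166.2, 226.5 and 241.3 in SPH1 RNAi (1.55 ± 0.17, adjusted p = 0.000706). AT5G60800, a protein with a heavy-metal-associated domain, had 45.2 to 69.4 on the Col-0 arrays and 89.8 to 277.9 on the SPH1 RNAi arrays of both stages (1.31 ± 0.20, adjusted p = 0.00402).

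A calmodulin-like and an EF-hand protein, both of calcium-binding families, were among the higher members. CML41, a calmodulin-like protein, had 30.0, 32.1 and 33.4 in Col-0 against 169.7, 101.1 and 160.8 in SPH1 RNAi at stage 1.05. At stage 1.14 it had 142.4, 77.2 and 71.4 against 149.7, 279.7 and 227.3, so that the highest Col-0 array and the lowest SPH1 RNAi array nearly met. The difference over both stages was 1.39 ± 0.20 (adjusted p = 0.00256). AT3G47480, an EF-hand protein, rose by 2.63 at stage 1.05 and by 1.02 at stage 1.14, and AT1G21520 by 2.79 and 1.12. In both, the Col-0 signal itself was much higher at stage 1.14, 151.2 to 165.5 against 14.5 to 31.3 for AT3G47480 and 162.6 to 189.0 against 24.4 to 37.1 for AT1G21520. These were the only genes among the 15 whose difference between the stages passed its own test (adjusted p = 0.0116 and 0.0111).

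An amylase, a pectin methylesterase and an osmotin were also higher. AMY1, an alpha-amylase that cuts starch, had 36.8, 17.3 and 17.2 in Col-0 and 61.5, 114.9 and 99.4 in SPH1 RNAi at stage 1.05, and 107.3, 124.1 and 86.5 against 238.1, 213.3 and 266.5 at stage 1.14 (1.26 ± 0.16, adjusted p = 0.00163). The SPH1 RNAi arrays of stage 1.05 overlapped the Col-0 arrays of stage 1.14. ATPMEPCRB (AT4G02330), a pectin methylesterase of the cell wall, had Col-0 signals of 21.4 to 38.1 and SPH1 RNAi signals of 75.9 to 190.7 at stage 1.05, and 34.4 to 92.2 against 128.1 to 190.5 at stage 1.14 (1.30 ± 0.23, adjusted p = 0.0103). OSM34, an osmotin of the thaumatin-like defence proteins, was less secure. It had 13.5, 9.8 and 13.5 against 14.3, 53.0 and 83.2 at stage 1.05, with the lowest SPH1 RNAi array barely above Col-0, and 154.8, 27.5 and 131.4 against 492.8, 211.8 and 280.0 at stage 1.14. Its difference of 1.36 ± 0.36 passed (adjusted p = 0.0457), yet the call held in 3 of the 12 fits that each left out 1 array, with adjusted p up to 0.0982. It was also lost with an offset of 64 (adjusted p = 0.052), with no filter (0.078) and with the background as a covariate (0.0714). Without both repeated arrays the difference of OSM34 was 1.48. For the other 14 higher genes the call held in every such fit in which the probe set was still above the minimum signal.

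**Figure D2:**
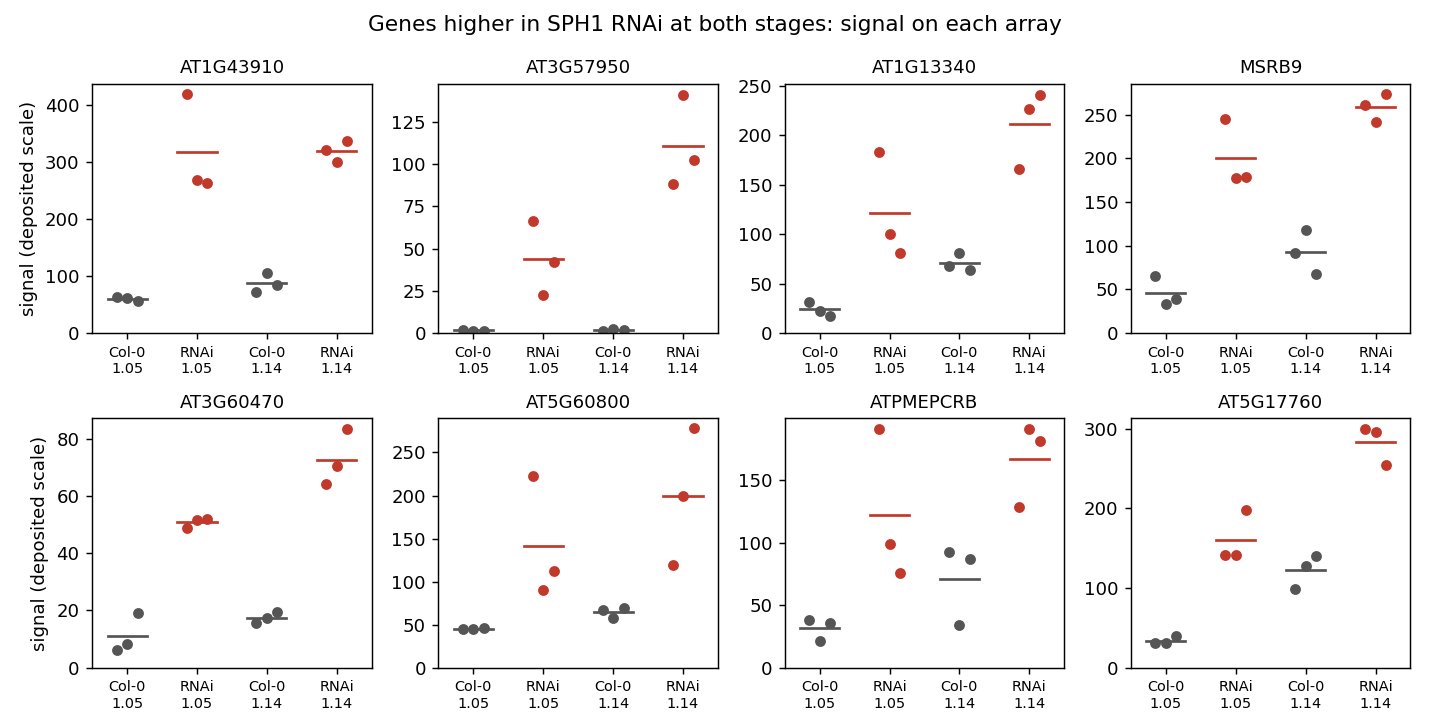
Deposited signal (linear axis from 0) on each of the 12 arrays for the first 8 higher genes, with Col-0 in grey, SPH1 RNAi in red and a line at each group mean. In every panel all 3 SPH1 RNAi points lie above all 3 Col-0 points of the same stage, as for AT1G43910 with at most 105.6 in Col-0 and at least 262.7 in SPH1 RNAi.

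Some higher probe sets without a listed gene had larger differences than most of the named ones. The top pair of them had differences of 2.41 ± 0.35 (adjusted p = 0.00298) and 2.40 ± 0.37 (adjusted p = 0.00374). Both rose more at stage 1.05, by 3.24 and 3.32, than at stage 1.14, by 1.58 and 1.47. Among all passed members, 122 higher and 78 lower probe sets were unnamed, so the gene accounts cover part of the response.

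Loci numbered AT4G16 and AT4G17 on chromosome 4 contributed 17 of the higher members with 1 gene and no lower one, with log2 differences from 0.43 to 1.30. All 17 lie between AT4G16800 and AT4G17720, where 38 genes were tested. SPH1 (AT4G16295) lies before this stretch, among 32 tested genes from AT4G16060 to AT4G16790. That none of these is a member follows from starting the stretch at the first member. In those 32, AT4G16660 passed as higher (1.08, adjusted p = 0.049) and CSLA01 as lower (-0.91, adjusted p = 0.0467), both overlapping at a stage and both given after their values were seen. The share was 15.0% of 40 tested genes in AT4G16 and 26.8% of 41 in AT4G17, against 2.45% of 938 genes in the rest of the chromosome and 2.2% over all chromosomes. These blocks were taken with the member calls known, so the shares only describe them. AT4G17140, a protein with a pleckstrin homology domain that is among the 15 named by rank, belongs here. Its signal was 103.9, 122.9 and 125.7 in Col-0 and 281.3, 302.1 and 213.5 in SPH1 RNAi at stage 1.05, and 209.9, 294.1 and 214.5 against 613.2, 375.8 and 578.7 at stage 1.14. Its differences were nearly equal, 1.07 and 1.06, with 1.06 ± 0.14 over both (adjusted p = 0.00194). Another 2 probe sets of the same gene gave 0.49 (adjusted p = 0.0451, overlapping at a stage) and 0.28 (adjusted p = 0.209), so its 3 probe sets disagree in size.

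The lower genes by the same order began with a thionin and a lectin. AT1G66100, a thionin of the small cysteine-rich antimicrobial peptides, had 950.0, 667.1 and 986.4 in Col-0 and 641.9, 173.6 and 193.1 in SPH1 RNAi at stage 1.05, and 535.2, 416.3 and 562.7 against 68.0, 221.5 and 219.5 at stage 1.14. It fell by 1.59 (SE 0.32, adjusted p = 0.0172), although SPH1 RNAi replicate 1 of stage 1.05 lay just under the lowest Col-0 array. AT3G16530, a lectin of the legume type, had 480.1, 390.2 and 568.6 against 304.4, 122.2 and 218.7 at stage 1.05 and 864.4, 340.2 and 856.1 against 112.8, 39.7 and 39.8 at stage 1.14. It fell by 2.15 over both stages (SE 0.39, adjusted p = 0.0109), by 1.17 at the earlier and 3.14 at the later stage, and the difference between the stages did not pass (adjusted p = 0.0869). AT3G26960, of the pollen Ole e 1 and extensin family, had 114.9 to 236.3 in Col-0 and 38.8 to 115.7 in SPH1 RNAi over both stages, separated within each stage (-1.16 ± 0.21, adjusted p = 0.0105).

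Next among the lower genes came an invertase and, further down the order, a glycosyl hydrolase. AT1G62660, a vacuolar invertase that splits sucrose, had 115.2, 160.5 and 127.5 in Col-0 and 66.1, 57.9 and 65.2 in SPH1 RNAi at stage 1.05, and 77.1, 78.9 and 99.4 against 34.5, 28.5 and 45.7 at stage 1.14. The groups were well apart at both stages, with differences of -0.92 and -0.96 (-0.94 ± 0.11 over both, adjusted p = 0.000868). GH9B8, a glycosyl hydrolase of the family that includes plant cellulases, had 152.5, 148.6 and 153.1 against 81.0, 64.2 and 59.7 at stage 1.05 and 104.8, 85.0 and 85.5 against 58.8, 45.6 and 40.1 at stage 1.14. Its Col-0 arrays of stage 1.05 were almost identical, and the difference was -0.88 ± 0.11 (adjusted p = 0.000964).

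PMEAMT, a phosphoethanolamine N-methyltransferase of phosphocholine synthesis, which feeds the membrane lipid phosphatidylcholine, fell from 820.9, 744.8 and 679.1 to 400.4, 429.3 and 510.7 at stage 1.05 and from 854.8, 1008.8 and 759.7 to 266.4, 564.1 and 525.7 at stage 1.14 (-0.86 ± 0.17, adjusted p = 0.0169). The related methyltransferase AT1G73600 was separated in the same direction, with 1238.9 to 1342.5 against 422.9 to 762.5 at stage 1.05 and 1095.6 to 2212.2 against 159.7 to 1070.6 at stage 1.14, but did not pass (-1.34 ± 0.36, adjusted p = 0.0509). These are the 2 tested genes of a list of 3, with a median of -1.10, and 1 fell and none rose. The list was chosen with earlier results of these data known, so these counts only describe it.

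RR16, a type-A response regulator of cytokinin signalling, had 40.7, 49.2 and 74.5 in Col-0 and 24.5, 27.7 and 27.9 in SPH1 RNAi at stage 1.05. At stage 1.14 it had 153.3, 87.8 and 112.6 against 43.4, 44.7 and 63.7, and the overall difference was -0.85 ± 0.15 (adjusted p = 0.00953). The Col-0 arrays of stage 1.14 all lay above those of stage 1.05, and the SPH1 RNAi arrays of stage 1.14 lay inside the range of the Col-0 arrays of stage 1.05. APS3, an ATP sulfurylase that activates sulfate for assimilation, had 235.1, 172.2 and 228.1 against 101.3, 131.5 and 148.3 at stage 1.05 and 192.4, 210.6 and 206.2 against 78.1, 133.2 and 117.9 at stage 1.14 (-0.75 ± 0.13, adjusted p = 0.0106).

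The remaining lower genes of the 15 were AT1G52510, an alpha/beta hydrolase (-1.15 ± 0.22, adjusted p = 0.013), AT4G39970, a haloacid dehalogenase-like hydrolase (-0.81 ± 0.14, adjusted p = 0.0103), AT3G14067, a subtilisin-like protease (-0.72 ± 0.17, adjusted p = 0.0366), AT1G15260, AT5G43150, AT4G20760 and AT5G12050. The last 4 had differences of -0.94, -0.98, -0.77 and -0.97. Replicate 1 of SPH1 RNAi at stage 1.14 was the lowest array for AT1G52510, AT1G15260, AT5G43150 and AT4G20760, at 43.5, 20.7, 80.6 and 26.5. Among the lower genes given array by array above, it was also the lowest for AT1G66100, PMEAMT and APS3. With 1 array left out the call was kept in 3 of 12 fits for AT1G15260 (adjusted p up to 0.0939), 7 for AT5G43150 (up to 0.08), 2 for AT4G20760 (up to 0.107), 8 for AT5G12050 (up to 0.0585) and 3 for AT3G14067 (up to 0.0863). With the background as a covariate AT1G15260, AT5G43150, AT4G20760 and AT3G14067 did not pass (adjusted p = 0.0698, 0.0625, 0.0791 and 0.0636). Without both repeated arrays the difference of AT5G12050 was -0.81. The other 10 lower genes kept the call in all 12. Of the 15, 13 had the larger difference at stage 1.14 and none had a difference between the stages that passed its own test.

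**Figure D3:**
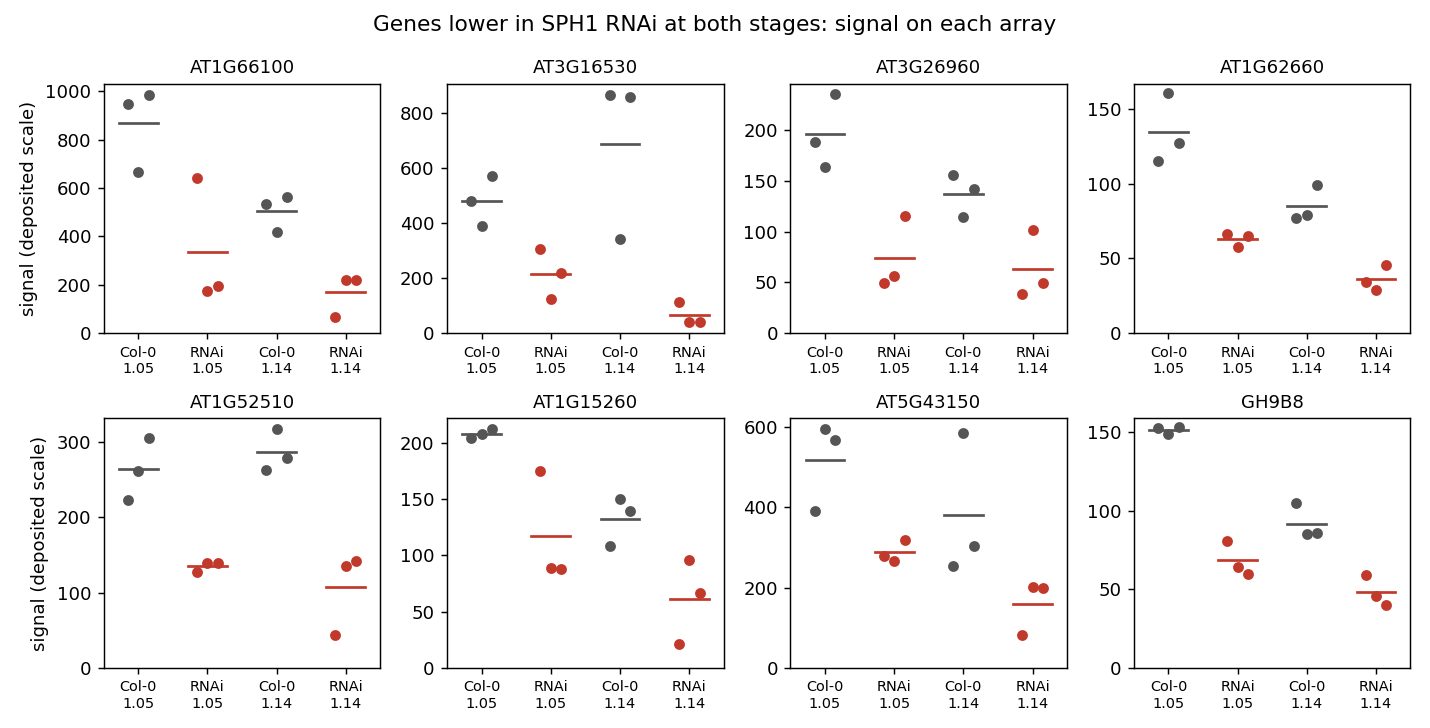
Deposited signal (linear axis from 0) on each of the 12 arrays for the first 8 lower genes, with Col-0 in grey, SPH1 RNAi in red and a line at each group mean. All SPH1 RNAi points lie below all Col-0 points of the same stage; for GH9B8 the SPH1 RNAi signals were 40.1 to 81.0 and the Col-0 signals 85.0 to 153.1.

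Among the members that passed, 15 higher and 15 lower ones carry a gene symbol, and the 8 higher and 11 lower of these not named by rank or list are given in full; they were picked for having a symbol after the values had been seen. The 8 higher genes had differences from 0.45 to 0.95. GLR1.4, a glutamate receptor-like channel, had 31.8 to 43.0 in Col-0 and 117.7 to 139.2 in SPH1 RNAi at stage 1.05 and 106.5 to 124.6 against 150.2 to 188.5 at stage 1.14 (0.95 ± 0.16, adjusted p = 0.00608). WRKY47, a WRKY transcription factor, had 33.4 to 38.5 against 101.5 to 113.9 and 106.9 to 115.1 against 148.5 to 166.8 at the same stages (0.83 ± 0.13, adjusted p = 0.00472). In both, the SPH1 RNAi arrays of stage 1.05 overlapped the Col-0 arrays of stage 1.14, and the difference between the stages passed its own test, -0.91 for GLR1.4 (adjusted p = 0.0253) and -0.77 for WRKY47 (adjusted p = 0.023). The others were NRPB12, a small RNA polymerase subunit (0.59), NRPA2, the second-largest subunit of RNA polymerase I (0.50), PHV, a homeodomain-leucine zipper factor that sets the upper side of the leaf (0.48), ATERDJ2B, a J-domain protein of the endoplasmic reticulum (0.47), PS1 (AT1G08700), a presenilin (0.46), and EMS1, a receptor kinase known from anther development (0.45). GLR1.4 and WRKY47 kept their calls in all 12 fits with an array left out. The calls of these others were kept in 9 fits for NRPB12 (adjusted p up to 0.0555), 7 for NRPA2 (up to 0.0683), 8 for PHV (up to 0.0641), 4 for ATERDJ2B (up to 0.0863), 2 for PS1 (up to 0.0924) and 2 for EMS1 (up to 0.089). With quantile normalization ATERDJ2B, PS1 and EMS1 did not pass (adjusted p = 0.0553, 0.0509 and 0.0995). PS1 and EMS1 did not pass with the background as a covariate either (adjusted p = 0.0723 and 0.0549). Without both repeated arrays the difference of NRPA2 was 0.43.

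The 11 lower genes with a symbol had differences from -0.70 to -0.43. NOL, a chlorophyll b reductase, had 155.0, 124.6 and 135.9 in Col-0 and 68.5, 91.6 and 71.6 in SPH1 RNAi at stage 1.05 and 108.6, 107.8 and 99.0 against 64.4, 66.5 and 65.7 at stage 1.14 (-0.65 ± 0.09, adjusted p = 0.00239). The stage 1.14 groups were tight and far apart. Z-ISO, the zeta-carotene isomerase of carotenoid synthesis, differed by -0.61, LIL3:2, a light-harvesting-like protein needed for chlorophyll synthesis, by -0.58, and CHL, the chloroplastic lipocalin, by -0.59. SIR, the sulfite reductase that follows further along the pathway of APS3, had 922.1, 959.8 and 1037.5 against 662.6, 572.1 and 613.7 at stage 1.05 and 720.5, 631.4 and 741.7 against 464.0, 622.0 and 509.9 at stage 1.14 (-0.52 ± 0.11, adjusted p = 0.0205). GR1 (AT3G24170), a glutathione reductase, differed by -0.59 (adjusted p = 0.0441). SBE2.2, a starch branching enzyme, SWEET17, a fructose transporter of the vacuole, SFP2, a sugar transporter-like protein, ALN, the allantoinase of purine breakdown, and FHL, a homologue of the light-signalling protein FHY1, differed by -0.70, -0.64, -0.43, -0.49 and -0.44. With an array left out NOL kept its call in all 12 fits, LIL3:2 and CHL in 11, both losing it without Col-0 replicate 3 of stage 1.05 (adjusted p = 0.0514 and 0.0564), SIR in 9 (up to 0.0593) and Z-ISO in 8 (up to 0.0635). ALN kept it in 8 (up to 0.0696), SWEET17 in 7 (up to 0.0756), FHL in 7 (up to 0.0758), SFP2 in 6 (up to 0.0784), GR1 in 2 (up to 0.0999) and SBE2.2 in 1 (up to 0.0808). With the background as a covariate SWEET17, SFP2, SBE2.2, FHL and GR1 did not pass (adjusted p = 0.0564, 0.0587, 0.0733, 0.0525 and 0.0745). SBE2.2 and GR1 did not pass with quantile normalization either (adjusted p = 0.0581 and 0.0621). Without both repeated arrays the difference of ALN was -0.38. Replicate 1 of SPH1 RNAi at stage 1.14 was the lowest array for NOL, Z-ISO, LIL3:2, SIR, GR1, SBE2.2 and SFP2.

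Gene lists for defence and stress held few genes with a listed probe set, and only some of their changes were shared by the stages in the strict sense. Loci without a listing may be among the 5901 tested probe sets that have no listed gene. Over all tested probe sets 4.73% passed and the median was 0.05, and these values are set beside each list. The lists were chosen with earlier results of these data known, so the counts and medians only describe them. Of 40 salicylate and systemic acquired resistance loci, 5 had a listed probe set and 4 were tested, with 2 higher, none lower and a median of 0.58. WRKY53, a transcription factor of defence and leaf ageing, rose by 0.87 ± 0.18 (adjusted p = 0.0205), with at most 21.0 in Col-0 and at least 46.0 in SPH1 RNAi at stage 1.05 and 73.3 to 130.1 against 99.1 to 194.5 at stage 1.14. GRX480, a glutaredoxin induced by salicylate, rose by 0.63 ± 0.16 (adjusted p = 0.0446). The GRX480 call was kept in 2 of 12 fits with an array left out (adjusted p up to 0.108). It was lost with quantile normalization (0.0616) and with the background as a covariate (0.0805). SAG101 (0.52, adjusted p = 0.13) and AT5G52810 (0.50, adjusted p = 0.231) did not pass. None of the 4 was separated at both stages. The WRKY53 call was lost without SPH1 RNAi replicate 2 or Col-0 replicate 3 of stage 1.05 (adjusted p = 0.0546 and 0.0564).

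The receptor kinase list was tested through BIK1 alone, a cytoplasmic kinase that relays signals from surface immune receptors. Its signal was 54.1, 57.0 and 53.7 in Col-0 and 102.1, 119.9 and 99.5 in SPH1 RNAi at stage 1.05, and 137.3, 123.8 and 116.3 against 155.0, 152.3 and 141.0 at stage 1.14. It was thus separated at both stages, by 0.79 and then by 0.22, with 0.51 ± 0.11 over both (adjusted p = 0.0247, kept in 6 of 12 fits with an array left out, up to 0.0683). The only tested gene of the NB-LRR immune receptor list, AT4G16880, had 0.60 and did not pass (adjusted p = 0.191).

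Of 4 tested chitinase and glucanase genes, 3 rose, none fell and the median was 0.79. AT2G43620 was the one separated at both stages, with 10.1 to 21.2 against 34.2 to 56.7 and 8.3 to 36.7 against 40.4 to 84.0 (0.91 ± 0.20, adjusted p = 0.0239). Without SPH1 RNAi replicate 2 of stage 1.05 its adjusted p was 0.0623. Both Col-0 means of AT2G43620, 15.4 and 23.6, were under the minimum signal of 32, so it was tested only through SPH1 RNAi. The listed loci AT2G43580 and AT2G43610 had mean signals of 4.9 and 23.1 and were not tested. CHI, a chitinase, stood at 46.1, 37.1 and 31.6 against 383.7, 1234.4 and 1047.1 at stage 1.05 but at 650.3, 1008.3 and 692.2 against 1026.6, 1354.6 and 808.2 at stage 1.14, where the genotypes overlapped. It passed over both stages (2.17 ± 0.54, adjusted p = 0.0384) with differences of 3.91 and 0.43, and the difference between the stages passed too (adjusted p = 0.00619). AT4G01700 rose by 0.67 ± 0.17 (adjusted p = 0.0442), and AT2G43590 did not pass (0.03). The calls for CHI and AT4G01700 were kept in 4 and 3 of 12 fits with an array left out (adjusted p up to 0.0948 and 0.107) and were lost with the background as a covariate (0.0617 and 0.0738). AT4G01700 did not pass with quantile normalization either (adjusted p = 0.0598).

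Endoplasmic reticulum folding genes had 2 of 4 higher, none lower and a median of 0.81, and the 2 that rose were both separated at both stages. They encode a chaperone pair that binds sugars on new glycoproteins. AT5G07340, a calnexin, had 120.8, 99.4 and 79.5 against 134.2, 313.0 and 274.9 at stage 1.05 and 92.1, 129.0 and 124.8 against 168.3, 217.1 and 225.9 at stage 1.14 (0.91 ± 0.19, adjusted p = 0.0179). CRT1b, a calreticulin, had 780.7, 707.1 and 613.5 against 820.7, 1517.5 and 1359.4 and then 401.2, 678.3 and 554.5 against 732.5, 1050.0 and 907.7 (0.74 ± 0.17, adjusted p = 0.0294). In each, replicate 1 of SPH1 RNAi was the lowest of its group at both stages. The calnexin call was lost without Col-0 replicate 3 of stage 1.05 (adjusted p = 0.0514), and that of CRT1b was kept in 5 of 12 fits (up to 0.0783) and lost with the background as a covariate (0.0512). ATERDJ3B, a J-domain co-chaperone, had 0.88 (adjusted p = 0.0603), and BZIP60, a transcription factor of the unfolded protein response, 0.30 (adjusted p = 0.115).

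Redox enzymes went both ways, 2 of 4 higher, 1 lower and a median of 0.33. Beside MSRB9 and GRX480, TAPX, the thylakoid ascorbate peroxidase, fell by 0.72 (SE 0.15, adjusted p = 0.0189). Its signals were 507.0, 550.3 and 569.5 against 290.1, 260.7 and 241.8 at stage 1.05 and 312.8, 249.6 and 329.0 against 152.9, 258.5 and 238.3 at stage 1.14, where a single pair of arrays was out of order. Without SPH1 RNAi replicate 2 or Col-0 replicate 3 of stage 1.05 its adjusted p was 0.0508 and 0.0542. SAPX, the stromal form, had 0.02 and did not pass.

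Some of the largest decreases over both stages were not separated at each stage. Of 3 tested jasmonate and ethylene response genes 2 fell and none rose, with a median of -2.76. PDF1.2b, a plant defensin, had 84.7, 929.7 and 1195.7 in Col-0 and 39.4, 97.7 and 114.9 in SPH1 RNAi at stage 1.05, and 1476.3, 287.3 and 2001.8 against 121.4, 18.6 and 20.7 at stage 1.14. A low Col-0 array at stage 1.05, replicate 1, brought the overlap. PDF1.2b fell by 3.25 (SE 0.67, adjusted p = 0.019) and PDF1.2 by 2.76 (SE 0.64, adjusted p = 0.0293). Near-identical sequence could let the probes of these defensins share signal. The call was lost without Col-0 replicate 3 of stage 1.05 for PDF1.2b (adjusted p = 0.0535) and was kept in 7 of 12 fits for PDF1.2 (up to 0.0758). Without both repeated arrays the differences were -2.52 for PDF1.2b and -2.08 for PDF1.2.

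Of 5 tested flavonoid and anthocyanin genes 2 fell and none rose, with a median of -1.24, and none was separated at both stages. DFR, dihydroflavonol reductase, fell by 1.30 (SE 0.27, adjusted p = 0.0202), with 268.1 to 324.5 against 65.8 to 81.9 at stage 1.05 but 46.6 to 192.9 against 33.1 to 48.1 at stage 1.14. AT4G14090, an anthocyanin glucosyltransferase, fell by 1.87 (SE 0.46, adjusted p = 0.0384). At stage 1.14 its Col-0 arrays read 13.8, 247.0 and 6.0, so replicate 2 stood far above the other Col-0 arrays. UF3GT (-1.24, adjusted p = 0.0559), UGT78D2 (-0.53, adjusted p = 0.274) and UGT78D1 (-0.18, adjusted p = 0.695) did not pass. The same Col-0 replicate was the highest for UF3GT, at 231.0 against 33.8 and 35.9, and for UGT78D2, at 199.1 against 67.5 and 56.7. The call of DFR was lost without SPH1 RNAi replicate 2 or Col-0 replicate 3 of stage 1.05 (adjusted p = 0.0546 and 0.0561). That of AT4G14090 was kept in 3 of 12 fits (up to 0.0895). It was lost with array weights (0.0801) and with the background as a covariate (0.071).

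Other lists gave few or no passing genes. None of 9 tested photosystem, antenna and carbon fixation genes passed, and their median was -0.22. None of 4 cold, drought and abscisic acid genes passed, with medians of 0.28 at stage 1.05 and -1.19 at stage 1.14, and none of 2 RNA silencing genes (median 0.12) or 2 glucosinolate genes (median -0.44). Of 7 tested cell wall genes GH9B8 fell and the other 6 did not pass, with a median of 0.08 that turned to -0.03 with array weights and to -0.02 without replicate 1 of SPH1 RNAi or replicate 2 of Col-0 at stage 1.14. Of 3 senescence genes WRKY53 rose, with a median of 0.52, and no heat shock gene reached the minimum signal. A miss in these small lists does not show that levels were equal.

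**Figure D4:**
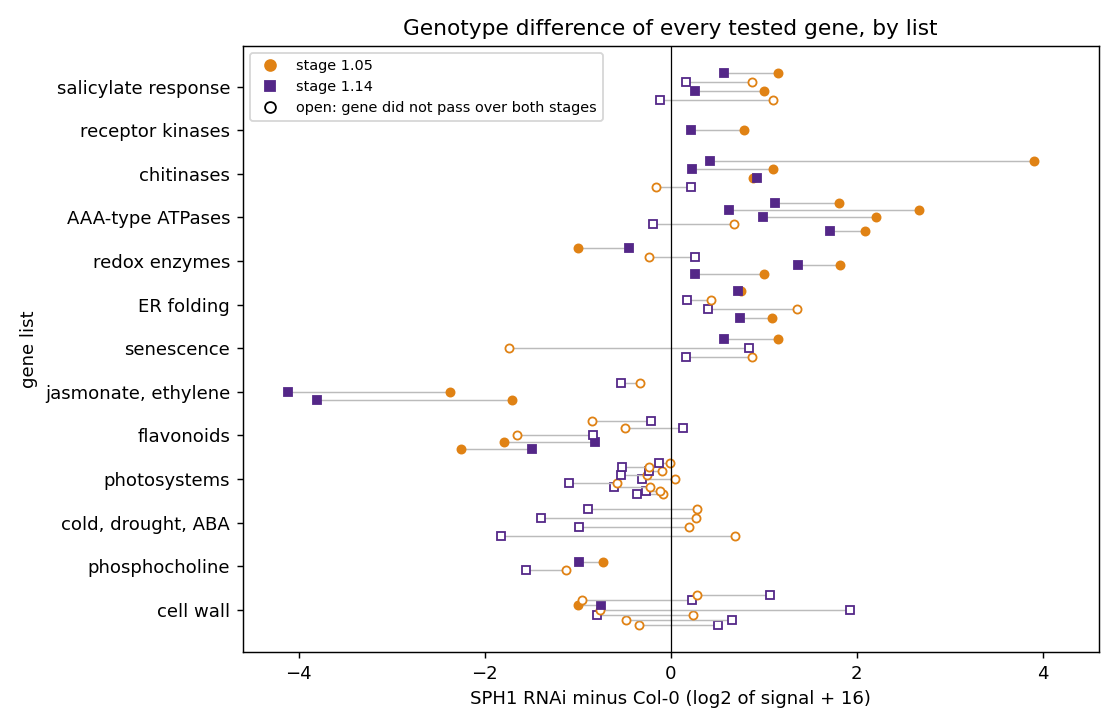
Difference between SPH1 RNAi and Col-0 in log2 of signal plus 16 for every tested gene of 13 lists, with circles for stage 1.05, squares for stage 1.14, a line joining the stages of a gene, and filled symbols for genes that passed over both stages. Both symbols lie on the same side of 0 for every filled gene, while the 4 cold, drought and abscisic acid genes are above 0 at stage 1.05 and below 0 at stage 1.14.

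Markers of other cell types and tissues were measured in part. The labelled tissue was checked through RCA, the rubisco activase of mesophyll and the only one of 7 mesophyll loci with a listed probe set, which ranged from 2797.8 to 5230 over the arrays. The summed signal of 2 measured guard cell markers (of 4) was 170.7 to 240 in SPH1 RNAi and 276.7 to 321.3 in Col-0 at stage 1.05, and 91.7 to 299.4 against 270.8 to 401.2 at stage 1.14. That of 3 markers of dividing cells (of 11) was 248.2 to 280.3 against 270.1 to 357.7 at stage 1.05 and 169.6 to 282.3 against 91.7 to 129.8 at stage 1.14. For 3 root markers (of 4) it was 331.1 to 561.3 against 366.8 to 600.3 at stage 1.05 and 80.4 to 391.2 against 38.9 to 58.4 at stage 1.14, and 2 of the 3 had a mean under 32. None of the tested markers passed over both stages. No flower, vascular or epidermis marker had a listed probe set. The part of these shifts in the shared differences was not tested.

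At the edge of the rule the separation of the genotypes was thin. AT3G10190 was just inside, its highest Col-0 array of stage 1.05 at 63.3 and its lowest SPH1 RNAi array at 63.4, and AT5G66240 was just outside, at 279.7 and 279.5. Among the lower ones AT3G03150 was just inside, with 348.3 as the lowest Col-0 and 347.8 as the highest SPH1 RNAi signal of stage 1.05. ISU1 lay just outside, with 425.4 and 425.9 for the same comparison at stage 1.14. The lowest mean signal of any named member was 32.1, for AT5G26731.

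The difference between the stages was tested for all probe sets in a model with 4 group means. It passed for 446 of 13263 (3.36%) and for 32 of the 742 members (4.31%), 29 of the 283 higher and 3 of the 150 lower ones that passed. With 4 group means in place of 2 terms, the genotype effect over both stages passed for 1311 probe sets, all 627 among them. Calls depended on single arrays: leaving out each in turn gave 219 to 767, and Col-0 replicate 3 of stage 1.05 was the one whose loss took the most.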

How the data were processed

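For 12 arrays the deposited table gives an intensity, on a linear scale, of 22810 probe sets. Biotin-labelled cRNA was hybridised to ATH1 arrays, per the labels. The labels do not state how probes were summarised. The deposited intensity values had been scaled per array: with 2% trimmed at each end their mean was 100.01 on every array.

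Control probe sets (64) were left out, and probe sets with a mean signal of at least 32 were tested. Log2 of signal plus 16 was computed from the deposited values and a linear model of genotype plus stage was fitted with limma 3.58.1 under R 4.3.3 (eBayes, trend with intensity), with 9 residual degrees of freedom. A model of 4 group means (8 degrees of freedom) gave the difference between stages. P-values were adjusted by Benjamini-Hochberg over all 13263 probe sets. They measure the spread between these arrays, each a pool of 40 plants, whose small number limits precision. On simulated data with 13263 probe sets the genotype fit found 89 of 100 changes of 1 and 99 of 100 changes of 2 (log2), and 3.59% of its calls were false. The simulated noise was normal and independent between arrays, and the changes were equal at both stages. No outlying array, background difference or difference between the stages was simulated, so these rates need not hold for the deposited arrays.

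Genes were named through the platform's list of probe sets and loci, with symbols from the TAIR10.1 gene list: 7095 tested probe sets had 1 gene, 267 several and 5901 none. Named genes are the 15 per direction with the largest smaller-stage difference among members that passed and have 1 gene, and SPH1 with its homologues. From each of 18 lists, up to 4 tested genes with the smallest p in the genotype test were also named. The members, lists and rules were chosen with earlier results of these data known. Same-numbered arrays of different groups did not deviate together in every pair (correlations of -0.25 to 0.49), so the numbers were not used as pairs. Alternatives covered the offset, the filter, quantile normalization, array weights, the array background, the trend, the repeated arrays and each array left out. No sequences or coordinates are given.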

Additional observations from a re-analysis of the deposited data

Results flagged for a closer look

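The genotype difference changed between the stages, by its own test in the 4-group model with limma (adjusted p under 0.05), for 11 of the genes given by name. Each value is the difference at stage 1.14 minus that at stage 1.05, on the log2 scale. Among the shared higher genes it was -1.67 for AT1G21520 and -1.62 for AT3G47480, and, among the members with a symbol, -0.91 for GLR1.4 and -0.77 for WRKY47, all separated at both stages but by less at the later one. It was -2.04 for AT3G28540, an AAA-type ATPase, and -3.48 for the chitinase CHI, whose genotypes overlapped at stage 1.14. For the others the genotype effect over both stages had not passed. These were SAG29, a sugar transporter linked to senescence, at 2.59, COR47 at -1.67 and LTI30 at -1.17, both cold-responsive dehydrins, and the glycosyl hydrolases GH9C2 at 1.18 and GH9B13 at 2.69. SAG29, GH9C2 and GH9B13 were lower in SPH1 RNAi at stage 1.05 and higher at stage 1.14, and COR47 and LTI30 the reverse.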

How the results depend on the processing

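The 627 calls over both stages became 1311 with 4 group means, whose residuals leave out stage differences, 971 with array weights, 1029 without both repeated arrays and 410 with the background as a covariate. Non-overlapping probe sets rose from 742 to 1900 without both repeated arrays, as smaller groups separate more easily, and those that also passed from 433 to 905. The 446 stage differences became 236 with no filter, 2137 with array weights, 79 with the background covariate and 856 without both repeated arrays. With 1 array left out the calls were 219 to 767 and the non-overlapping probe sets 822 to 1112. Those meeting both criteria were 201 to 596, and the stage differences 119 to 702. The calls moved by over 1.5 times without Col-0 replicate 3 (219), SPH1 RNAi replicates 2 (263) and 3 (353) and Col-0 replicate 2 (377) of stage 1.05, and Col-0 replicates 3 (312) and 1 (374) and SPH1 RNAi replicate 3 (382) of stage 1.14. Offsets of 1 and 64, no filter, a filter at 64, quantile normalization and no trend gave 484 to 669. Where no construction is named, the cause was not tested. The replicate block gave 469 calls, 431 of them among the 627; 9 of the genes given by name did not pass under it (OSM34, AT1G15260, AT3G14067, GRX480, CHI, AT4G01700, SFP2, GR1 and PS1, adjusted p from 0.0502 to 0.067). The arrays share only a number, and 7 of 18 same-numbered pairs correlated over 0.1.

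Signs turned for 6 list genes that had not passed. AT2G43590 went to -0.093 with quantile normalization and -0.10 with array weights, and lay between -0.14 and 0.14 with an array left out. AGO7 went to -0.064 with quantile normalization and lay between -0.071 and 0.17, and SAPX went to -0.20 without both repeated arrays and lay between -0.063 and 0.093. EXPA4 went to -0.026 with array weights and lay between -0.17 and 0.24, EXPA15 lay between -0.022 and 0.17, and RCA went from -0.07 to 0.0011 with quantile normalization. No detection calls were used, so signals near 0 have no reliable order.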
